A study of Homo sapiens with 8 samples.

Results

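The 10 genes described here encode the interleukin-7 receptor and the JAK-STAT chain behind it. They are the receptor chains IL7R and IL2RG, the kinases JAK1 and JAK3, the transcription factors STAT3, STAT5A and STAT5B, and the feedback inhibitors SOCS1, SOCS2 and CISH. They were chosen by symbol, each symbol matched 1 Ensembl identifier, and they are 10 of the 63677 genes counted. All 10 passed the filter on low counts in every comparison. RNA came from MOLT-4 and DND-41, long-established cell lines grown from human T-cell acute lymphoblastic leukaemias (T-ALL). The cells were exposed for 24 h to ACBI-1 at 100 nM, or to DMSO, its solvent. The compound ACBI-1 is a PROTAC: it tethers SMARCA2, SMARCA4 and PBRM1, subunits of SWI/SNF chromatin remodellers, to a ubiquitin ligase, and the tethered proteins are degraded. The 4 groups were MOLT-4 with ACBI-1, MOLT-4 with DMSO, DND-41 with ACBI-1 and DND-41 with DMSO, each with 2 libraries. The labels name no genetic change in either line. They do not say whether the 2 libraries of a group came from separate cultures, so the p-values rest on a spread that may be technical alone.

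Interleukin 7 is a cytokine that developing T cells and many T-cell leukaemias need for survival. It binds IL7R, the chain that gives the receptor its specificity, together with IL2RG, the common gamma chain shared with the receptors for other interleukins. JAK1 sits on IL7R and JAK3 on IL2RG, and once brought together they phosphorylate STAT proteins, chiefly STAT5A and STAT5B, which enter the nucleus and switch on target genes. CISH, SOCS1 and SOCS2 are among those targets in many blood cells and act back on the receptor complex as inhibitors. Transcript levels do not show whether the kinases or STAT proteins were active.

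The 8 libraries held 21308737 to 22067644 counts each. In MOLT-4 the libraries of 1 treatment were close to each other and far from those of the other. In DND-41 the libraries separated by their replicate number and not by their labelled treatment: the chi-square per degree of freedom was 5.53 to 6.001 between libraries of the same number and different label, against 71.9 to 76.3 between libraries of the same label and different number. The authors' deposited DND-41 table of fold changes equalled the libraries numbered 2 over those numbered 1 within 0.001 in all 27069 genes compared, and equalled the contrast of the labels in 41. Which DND-41 libraries were treated cannot be told apart from these files, so both contrasts are given, and the numbered one is not called a treatment effect. T-lineage markers (CD3D, CD3E, CD3G, CD2, CD5, CD7 and PTCRA) were all detected in MOLT-4, and all but PTCRA (0 to 0.0427 CPM) in DND-41. They summed to 1604 to 1722 CPM (counts scaled to a common library size) in treated MOLT-4 and 1826 to 1839 CPM in its DMSO libraries. The sums in DND-41, as labelled, were 2834 to 2887 CPM for ACBI-1 and 2969 to 3073 CPM for DMSO. Single markers moved in opposite directions within these sums. CD7 had 21.1 and 25.5 CPM in treated MOLT-4 cells, against 141 and 149 CPM under DMSO, while CD3G had 444 and 468 CPM in treated cells, against 288 and 299 CPM under DMSO. CD2, CD3D, CD5 and PTCRA were lower in both treated MOLT-4 libraries, as was CD7, and CD3E overlapped between the treatments. CD2 had 24.9 and 24.4 CPM in treated MOLT-4 cells, against 92.9 and 94.6 CPM under DMSO. In the DND-41 libraries numbered 2, CD7 had 214 and 252 CPM, against 1251 and 1228 CPM in those numbered 1, while CD3G had 1050 and 1118 CPM in those numbered 2, against 433 and 423 CPM in those numbered 1. TLX3, the leukaemia driver of DND-41, was at 120 to 248 CPM in DND-41 and at 0 in MOLT-4, where TAL1 was at 56.6 and 57.3 CPM in treated cells, against 115 and 118 CPM under DMSO. Among B-cell markers, MS4A1 was at 0 in all libraries. CD79A moved with the replicate number in DND-41, with 178 and 208 CPM in the libraries numbered 2 and 689 and 735 CPM in those numbered 1, and in MOLT-4 it had 0.277 and 0.512 CPM in treated cells, against 4.56 and 4.57 CPM under DMSO. Summed markers of myeloid cells reached at most 0.462 CPM and those of erythroid cells at most 0.0854 CPM in any library. The part of these differences in the results below was not tested. In bulk RNA, fewer cells of a type and less RNA per cell cannot be told apart.

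ACBI-1 treatment of MOLT-4 lowered 6 of the 10 genes and raised 2. JAK3, IL2RG, CISH, STAT5A, IL7R and STAT3 fell, SOCS1 and STAT5B rose, and JAK1 and SOCS2 did not pass the test. Lower calls thus took 6 of 10 members where they took 30.2% of the 14618 genes tested, higher calls took 2 of 10 against 28.2%, and calls in either direction took 8 of 10 against 58.4% (edgeR quasi-likelihood test, Benjamini-Hochberg adjusted p under 0.05). The members' median log2 fold change was -0.85, beside 0.01 over all genes tested. The MOLT-4 libraries of the 2 treatments did not overlap for the 8 genes called, and for 77.7% of all genes tested. Under scaling by total counts the median over all genes shifted by 0.12, and 5804 genes were called higher and 3031 lower in place of 4120 and 4413. Where the spread was estimated over the libraries of both lines together, none of the 10 passed by edgeR, and 544 genes passed in all. That spread took in the difference between replicate numbers within the DND-41 groups.

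**Figure D1:**
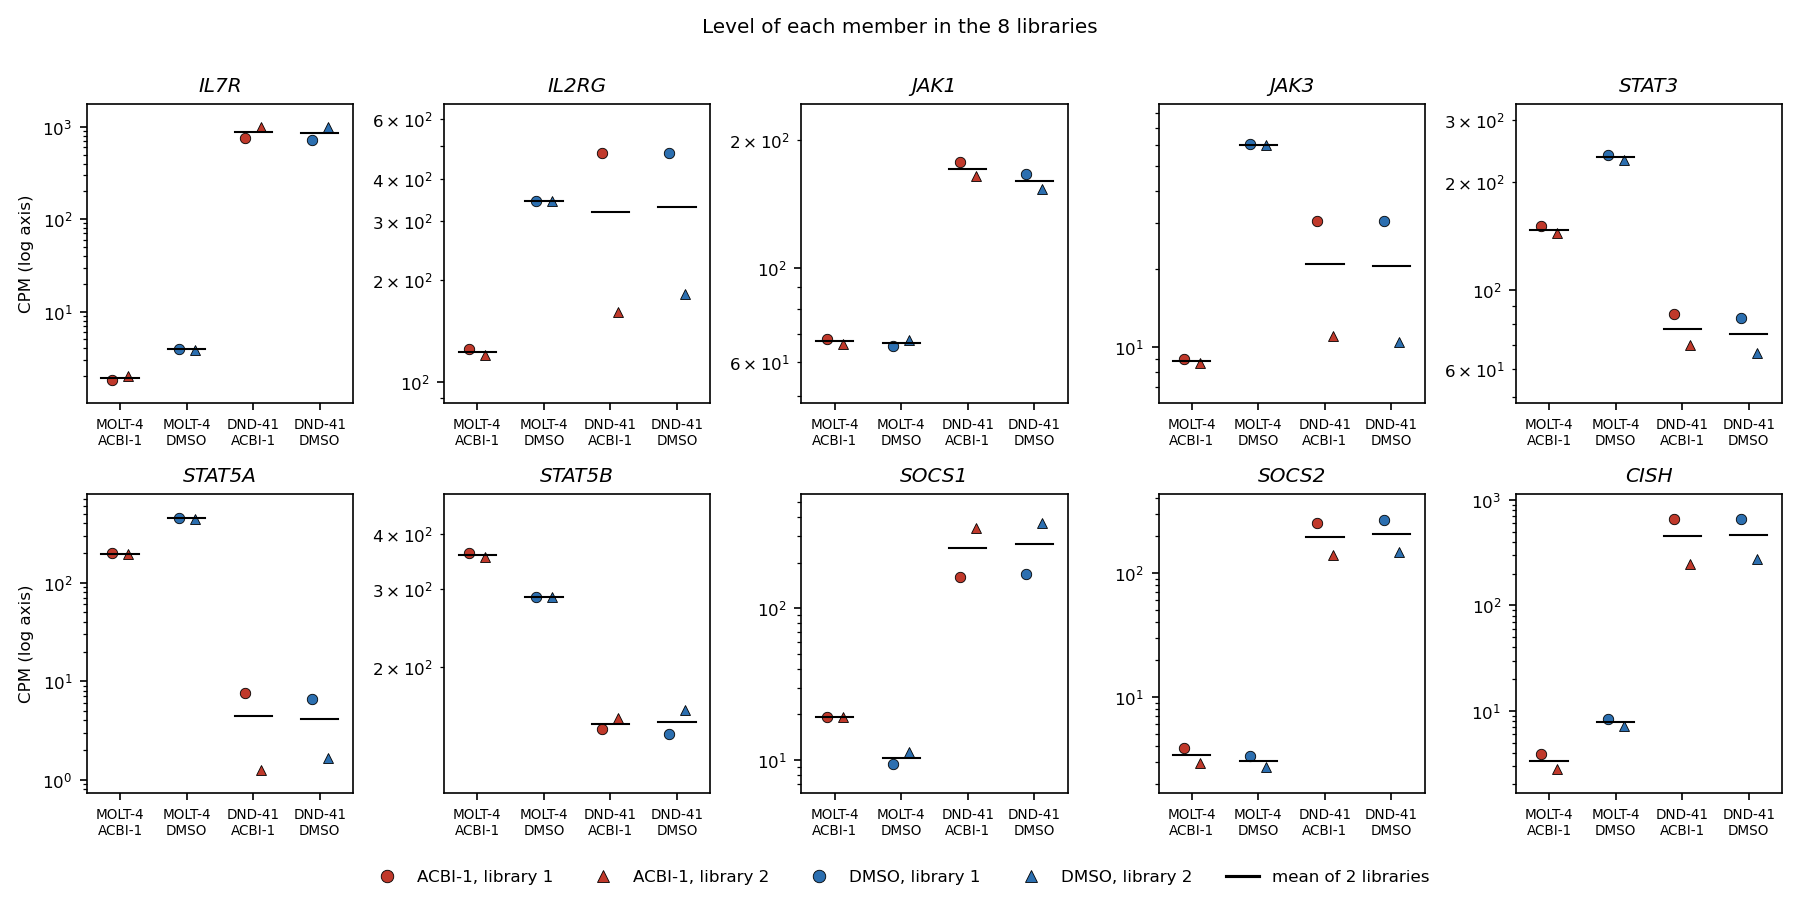
Level of each of the 10 genes in the 8 libraries, as CPM on log axes that differ between panels; red is ACBI-1, blue is DMSO, circles and triangles are libraries numbered 1 and 2, and lines are means of 2 libraries. In MOLT-4 the points group by treatment, as for JAK3 at 8.69 and 9.02 against 60.1 and 60.5, while in DND-41 circles and triangles stand apart under both labels, as for IL2RG.

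The specific receptor chain IL7R (ENSG00000168685) was almost silent in MOLT-4 and fell further with ACBI-1. It had 39 and 43 counts (1.81 and 1.99 CPM) in MOLT-4 cells with ACBI-1, against 79 and 78 counts (3.91 and 3.87 CPM) with DMSO. The groups did not overlap, and the log2 fold change was -1.03 (standard error 0.21, edgeR adjusted p = 3.42e-05). In DND-41, IL7R had 989 CPM in the library numbered 2 and 746 CPM in the one numbered 1 under the ACBI-1 label, and 983 CPM and 713 CPM in those under the DMSO label. The label made little difference, and the number separated the libraries. IL7R was higher in the libraries numbered 2, with a log2 fold change of 0.45 (standard error 0.07, edgeR adjusted p = 0.000247). In the libraries labelled DMSO the level was lower in MOLT-4 than in DND-41 by a log2 fold change of -7.76 (standard error 0.26, edgeR adjusted p = 1.37e-05). This was the largest difference between the lines among the 10 genes.

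The shared chain IL2RG (ENSG00000147168) was abundant in both lines. It had 125 and 121 CPM in MOLT-4 cells with ACBI-1, against 343 and 343 CPM with DMSO. The treated libraries lay well below the others, with a log2 fold change of -1.48 (standard error 0.04, edgeR adjusted p = 7.38e-32). The DND-41 libraries numbered 2 had 161 and 182 CPM of it, against 477 and 477 CPM in those numbered 1, and each number held 1 library of each label. The log2 fold change of number 2 over 1 was -1.46 (standard error 0.07, edgeR adjusted p = 1.7e-07), close in size to the MOLT-4 change. The ratio of IL7R to IL2RG, both per kilobase of exon, was 0.00661 and 0.00750 in treated MOLT-4 cells, against 0.00520 and 0.00514 under DMSO. In DND-41 the ratio was 2.80 and 2.46 in the libraries numbered 2, and 0.712 and 0.681 in those numbered 1. IL7R transcripts were therefore rare beside those of IL2RG in every MOLT-4 library, and outnumbered them in the DND-41 libraries numbered 2.

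The kinase of the shared chain, JAK3 (ENSG00000105639), showed the largest change among the 10 genes in MOLT-4. It had 9.02 and 8.69 CPM with ACBI-1, against 60.5 and 60.1 CPM with DMSO. The groups stood far apart, with a log2 fold change of -2.76 (standard error 0.07, edgeR adjusted p = 2.87e-31). JAK3 in DND-41 was at 11.0 and 10.5 CPM in the libraries numbered 2, against 30.8 and 30.6 CPM in those numbered 1. That difference was a log2 fold change of -1.50 (standard error 0.09, edgeR adjusted p = 5.67e-07). JAK1 (ENSG00000162434), the kinase of IL7R, had 68.1 and 66.2 CPM with ACBI-1 and 65.6 and 67.6 CPM with DMSO in MOLT-4. The groups overlapped, and the log2 fold change was 0.01, with a 95% interval of -0.09 to 0.11 (edgeR adjusted p = 0.826). Under scaling by total counts JAK1 was called higher, at 0.13 (edgeR adjusted p = 0.0214), a value close to that scaling's shift of all genes. In DND-41, JAK1 had 165 and 154 CPM in the libraries numbered 2 and 178 and 166 CPM in those numbered 1, with a log2 fold change of -0.09 (95% interval -0.25 to 0.06, edgeR adjusted p = 0.29). The ratio of JAK3 to JAK1 per kilobase of exon was 0.123 and 0.122 in treated MOLT-4 cells, against 0.856 and 0.824 under DMSO. It was 0.0620 and 0.0631 in the DND-41 libraries numbered 2, and 0.160 and 0.171 in those numbered 1. The fall of this ratio in treated MOLT-4 cells followed JAK3, the numerator.

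The paralogs STAT5A and STAT5B, neighbours in the genome that bind the same DNA motif, moved in opposite directions in MOLT-4. STAT5A (ENSG00000126561) had 198 and 193 CPM with ACBI-1, against 454 and 440 CPM with DMSO. The log2 fold change was -1.19 (standard error 0.04, edgeR adjusted p = 3.98e-29). STAT5B (ENSG00000173757) had 362 and 356 CPM with ACBI-1, against 288 and 288 CPM with DMSO. It rose by a log2 fold change of 0.32 (standard error 0.04, edgeR adjusted p = 1.57e-10), without overlap of the groups. Per kilobase of exon the ratio of STAT5A to STAT5B was 0.613 and 0.608 with ACBI-1, against 1.77 and 1.71 with DMSO. The more abundant paralog per length was therefore STAT5B in the treated libraries and STAT5A in the DMSO libraries of MOLT-4. Reads can be shared between the paralogs: 371 distinct windows of 100 bases occurred in the exons of both, 6.14% of the STAT5A windows and 5.67% of the STAT5B windows, and how such reads were counted is not given in the sources used here.

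DND-41 held little STAT5A. Its level was 1.27 and 1.67 CPM in the libraries numbered 2, against 7.65 and 6.60 CPM in those numbered 1. These values gave a log2 fold change of -2.26 (standard error 0.19, edgeR adjusted p = 5.74e-06). STAT5B had 153 and 160 CPM in the libraries numbered 2, against 144 and 141 CPM in those numbered 1. Its log2 fold change of 0.15 did not pass (standard error 0.06, edgeR adjusted p = 0.0713), and it passed under scaling by total counts (0.25, edgeR adjusted p = 0.00697). The ratio of STAT5A to STAT5B per kilobase of exon was 0.00931 and 0.0117 in the libraries numbered 2, and 0.0594 and 0.0525 in those numbered 1. STAT5B supplied nearly all STAT5 transcripts in every DND-41 library.

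STAT3 (ENSG00000168610), which also serves the interleukin-6 family, fell in MOLT-4. It had 150 and 144 CPM with ACBI-1, against 239 and 231 CPM with DMSO. The log2 fold change was -0.67 (standard error 0.04, edgeR adjusted p = 3.68e-19). STAT3 levels in DND-41 were 69.7 and 66.5 CPM in the libraries numbered 2, against 85.5 and 83.4 CPM in those numbered 1. The difference was smaller there, with a log2 fold change of -0.29 (standard error 0.07, edgeR adjusted p = 0.00511).

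The feedback genes divided between the lines more than by treatment. CISH (ENSG00000114737), whose product blocks STAT5 docking, had 83 and 61 counts (3.86 and 2.82 CPM) in MOLT-4 cells with ACBI-1, against 168 and 146 counts (8.32 and 7.25 CPM) with DMSO. The groups did not overlap, and the log2 fold change was -1.22 (standard error 0.16, edgeR adjusted p = 8.06e-09). The DND-41 levels of CISH were 250 and 274 CPM in the libraries numbered 2, against 664 and 667 CPM in those numbered 1. The log2 fold change was -1.33 (standard error 0.07, edgeR adjusted p = 2.28e-07). SOCS1 (ENSG00000185338), whose product inhibits JAK kinases directly, went the other way in both contrasts. It had 19.3 and 19.2 CPM with ACBI-1, against 9.41 and 11.3 CPM with DMSO in MOLT-4, a log2 fold change of 0.90 (standard error 0.10, edgeR adjusted p = 6.87e-11). In DND-41 it had 341 and 364 CPM in the libraries numbered 2, against 162 and 167 CPM in those numbered 1, a log2 fold change of 1.11 (standard error 0.07, edgeR adjusted p = 5.67e-07). SOCS1 was the only one of the 10 genes called higher in both contrasts.

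SOCS2 (ENSG00000120833), known as a brake on growth hormone signalling, had 3.86 and 2.96 CPM with ACBI-1 and 3.37 and 2.73 CPM with DMSO in MOLT-4. The groups overlapped, and at this low level the log2 fold change of 0.16 had a 95% interval of -0.23 to 0.56 (edgeR adjusted p = 0.495). In DND-41, SOCS2 had 139 and 146 CPM in the libraries numbered 2, against 252 and 265 CPM in those numbered 1, a log2 fold change of -0.84 (standard error 0.07, edgeR adjusted p = 3.61e-06). The ratio of CISH to SOCS1 per kilobase of exon was 0.0704 and 0.0516 with ACBI-1, against 0.311 and 0.226 with DMSO in MOLT-4. It was 0.257 and 0.265 in the DND-41 libraries numbered 2, against 1.44 and 1.40 in those numbered 1. SOCS1 exceeded CISH per length in every MOLT-4 library and in the DND-41 libraries numbered 2, and CISH exceeded SOCS1 in those numbered 1.

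**Figure D2:**
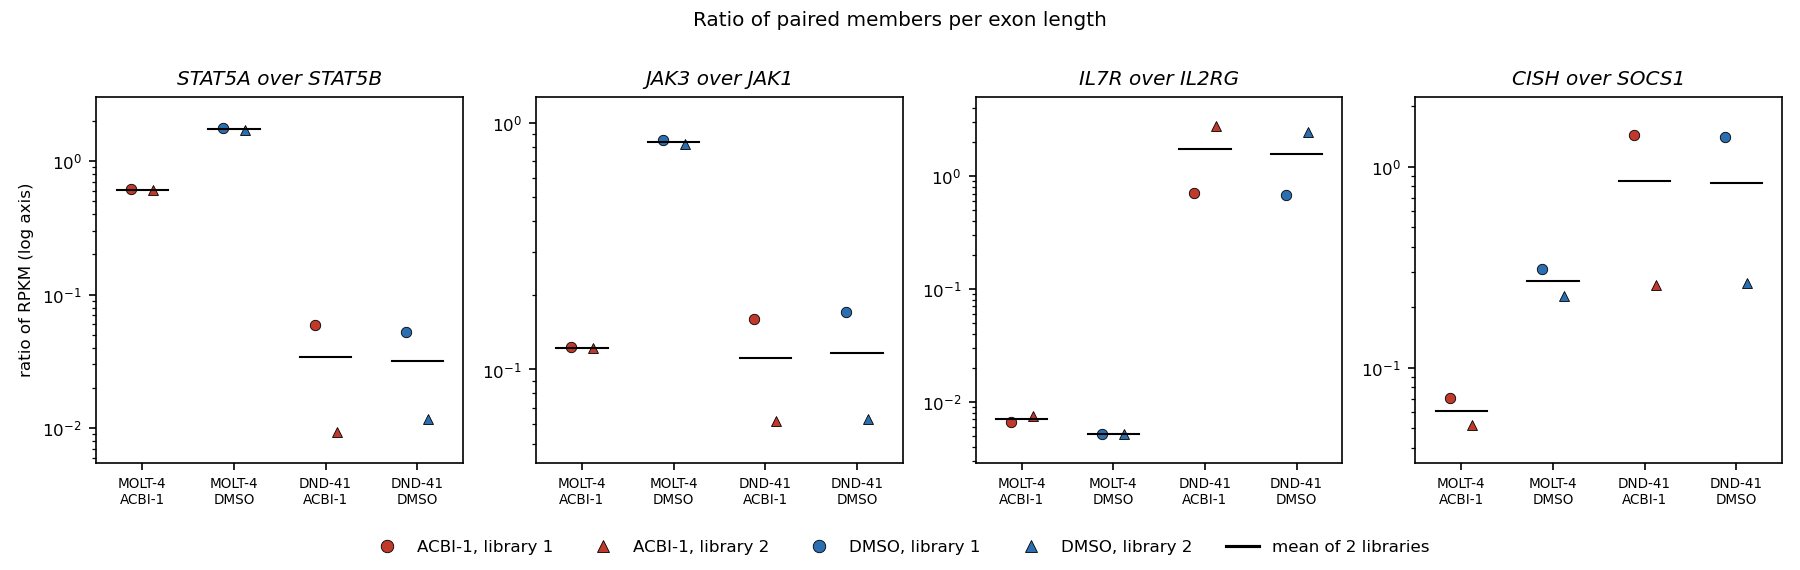
Ratios of 4 pairs of the genes, each a ratio of RPKM (CPM divided by exon length in kilobases) on a log axis, in the 8 libraries; colours and shapes are as in the plot of levels. STAT5A over STAT5B was 0.61 in treated MOLT-4 and 1.71 to 1.77 in DMSO, and all 4 ratios separate the DND-41 libraries by number.

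CISH is a classical target of STAT5, and its promoter is shown because it alone among the members' windows holds the STAT palindrome TTCNNNGAA. RefSeq windows of 300 bases around gene starts were found for 9 of the 10 genes (13 windows, GRCh38.p14), SOCS2 being the gene without one. The 250 bases before the CISH start, chr3:50611775-50612024 on the minus strand, read 5′ to 3′ with the palindromes in capitals, are

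CISH: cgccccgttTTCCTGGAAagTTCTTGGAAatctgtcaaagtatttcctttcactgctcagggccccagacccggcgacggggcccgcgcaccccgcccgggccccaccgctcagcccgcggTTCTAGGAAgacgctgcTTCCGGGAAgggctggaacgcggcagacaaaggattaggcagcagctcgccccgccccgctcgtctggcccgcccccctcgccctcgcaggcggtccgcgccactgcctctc

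The palindrome starts at -241, -230, -129 and -112 from the start and occurs 4 times. At least 1 copy was present in 7.66% of all 35116 promoter windows searched. The core TGGGAA bound by RBPJ, the DNA-binding partner of NOTCH proteins, occurred in windows of IL2RG (at -245) and STAT5A (at -37), and in 24.0% of all windows. The core TGTGGT bound by RUNX proteins occurred in the IL7R window (at -43) and in 13.1% of all windows. All 3 motifs were searched on both strands, and no TGGGAA match overlapped a palindrome. A match is a description of the letters and was not tested as a binding site.

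Some members overlap other genes on the opposite strand, and the strand setting of the counting is not given in the sources used here. The exons of CISH share 218 bases with MAPKAPK3, whose counts came to 1286% of those of CISH over the MOLT-4 libraries and 47.2% over the DND-41 libraries. MAPKAPK3 moved in the same direction as CISH, with a log2 fold change of -0.87 in MOLT-4 (edgeR adjusted p = 2.31e-19) and -1.48 for number 2 over 1 in DND-41 (edgeR adjusted p = 1.64e-07). Its part in the CISH values was not tested. The exons of SOCS2 share 277 bases with SOCS2-AS1, which held 18.1% and 10.3% as many counts as SOCS2 in MOLT-4 and DND-41. SOCS2-AS1 had 16 and 24 counts with ACBI-1, against 4 and 5 with DMSO in MOLT-4 (edgeR adjusted p = 0.000356, DESeq2 adjusted p = 0.0533). JAK1 and RAVER2 share 4 bases.

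The contrast of the DND-41 labels called none of the 10 genes and 0 of 14602 genes (0% by edgeR). At an unadjusted p under 0.05 edgeR gave 37 genes, none of them a member, and DESeq2 called 0 genes after adjustment. The members' log2 fold changes for ACBI-1 over DMSO as labelled ran from -0.08 for SOCS2 to 0.10 for JAK1. The intervals were wide, from -2.84 to 3.04 for STAT5A, and narrowest for JAK1, from -0.24 to 0.45. A change the size of that in MOLT-4 lay within the interval for IL2RG, STAT5A, STAT5B, SOCS1 and CISH. The MOLT-4 changes of IL7R, JAK3 and STAT3 lay outside it. Which DND-41 libraries were treated cannot be told apart. These intervals therefore describe the contrast of the labels and set no limit on a response of DND-41 to ACBI-1.

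The contrast of DND-41 numbers called 8 of the 10 genes where edgeR called 51.1% of all genes tested. Of the 10, 2 were higher in the libraries numbered 2 (IL7R and SOCS1; 25.4% of all genes) and 6 were lower (IL2RG, JAK3, STAT3, STAT5A, SOCS2 and CISH; 25.7%). The members' median log2 fold change was -0.57, beside 0.02 over all genes. The same 8 genes had an adjusted p under 0.05 in the DND-41 fold changes of the authors' deposited table, 2 higher (15.2% of its genes) and 6 lower (21.6%), where 36.8% passed in all. For MOLT-4, the authors' deposited table had 2 members higher (14.7% of its genes) and 6 lower (20.3%), where 35.1% passed in all. Across the MOLT-4 treatment contrast and the DND-41 number contrast, which share no library, 7 of the 10 were called in both, as were 38.8% of the 13272 genes tested in both. Of the 10, 5 were lower in both (IL2RG, JAK3, STAT3, STAT5A and CISH; 19.5% of all genes) and SOCS1 was higher in both (16.5%). IL7R was lower in the first and higher in the second, and calls of opposite sign took 2.89% of all genes.

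**Figure D3:**
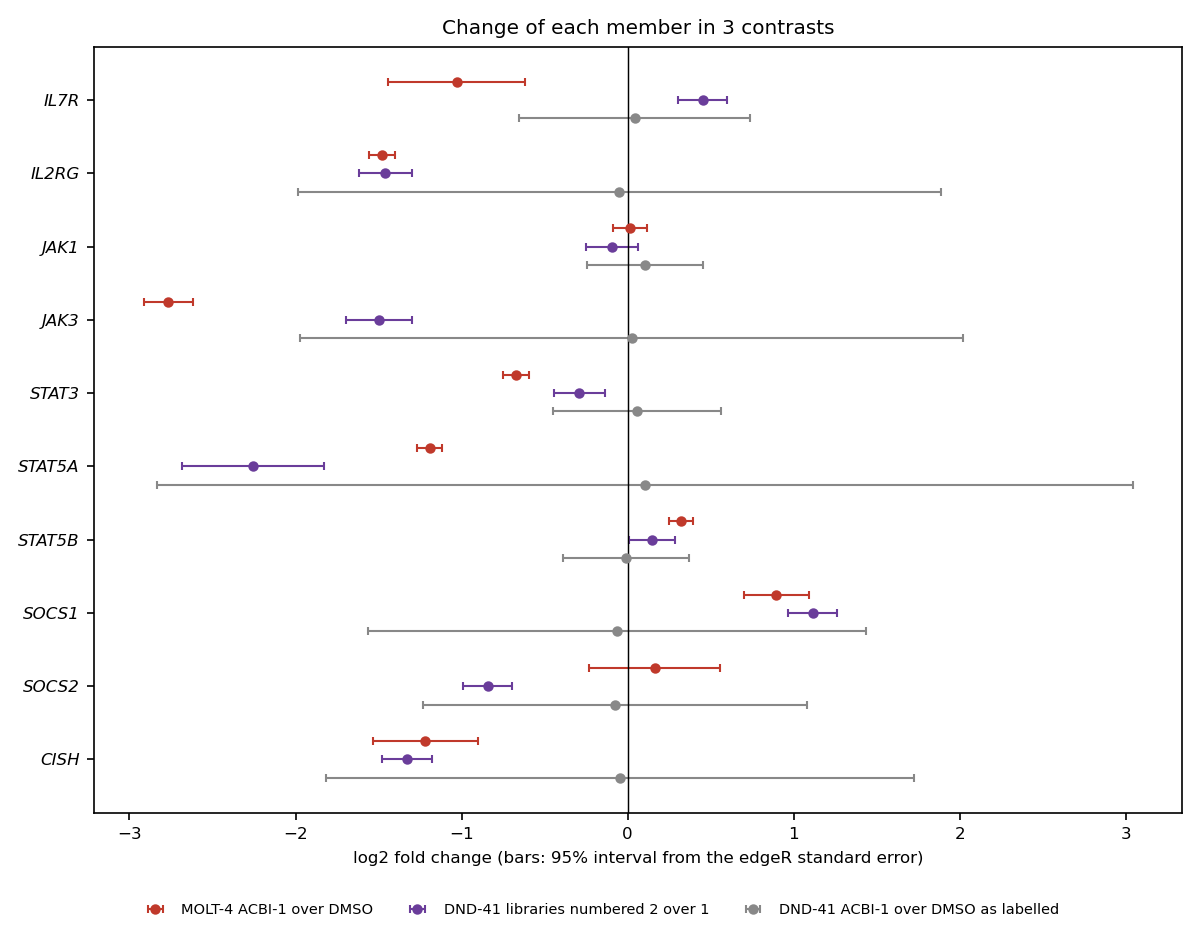
Log2 fold change of each of the 10 genes with its 95% interval from the edgeR standard error: red is MOLT-4 ACBI-1 over DMSO, purple is DND-41 libraries numbered 2 over 1, grey is DND-41 ACBI-1 over DMSO as labelled. The red and purple points of IL2RG (-1.48 and -1.46) nearly coincide, those of IL7R lie on opposite sides of 0, and every grey interval spans 0.

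The difference between the lines in the labelled treatment effect was tested as an interaction. Each DND-41 group mixed both replicate numbers, so the spread in this fit took in the difference by number. A gene that did not pass is therefore not shown to respond alike in both lines. None of the 10 genes passed by edgeR, where 0.393% of 16047 genes did (0.125% higher and 0.268% lower). An unadjusted p under 0.05 by edgeR was found for 4 of the 10 (IL7R, JAK3, STAT3 and STAT5B) and for 1611 of the 16047 genes. DESeq2 called JAK3 alone among the 10, at a log2 difference of -2.81 (adjusted p = 0.0208), and 367 genes in all. When the DND-41 libraries were instead grouped by number, a choice made after seeing the data, the MOLT-4 change minus the DND-41 change passed for 5 of the 10 genes and for 20.6% of all genes. Of the 5, 3 were negative (8.95% of all genes) and 2 positive (11.7%). It was -1.47 for IL7R (edgeR adjusted p = 2.69e-06), -1.25 for JAK3 (edgeR adjusted p = 1.18e-07) and -0.37 for STAT3 (edgeR adjusted p = 0.00263). It was positive for STAT5A, at 1.08 (edgeR adjusted p = 0.000139), and for SOCS2, at 1.02 (edgeR adjusted p = 0.000433). For IL2RG, JAK1, STAT5B, SOCS1 and CISH the difference did not pass. The values of those 5 ran from -0.20 for SOCS1 to 0.19 for STAT5B.

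The libraries labelled DMSO carried different sets of these transcripts in each line. Which DND-41 libraries were treated cannot be told apart, so the DND-41 side of this contrast may mix treated and untreated cells. In DMSO, with MOLT-4 set over DND-41, 3 of the 10 genes were higher, 5 lower and 2 not called, where edgeR called 39.5% of 16047 genes (20.1% higher and 19.4% lower). The 3 STAT genes were all higher in MOLT-4, by log2 fold changes of 6.77 for STAT5A (standard error 0.92, edgeR adjusted p = 0.00198), 1.65 for STAT3 (standard error 0.15, edgeR adjusted p = 0.000358) and 0.94 for STAT5B (standard error 0.09, edgeR adjusted p = 0.000531). All 3 feedback genes were lower in MOLT-4, SOCS2 by -6.07 (standard error 0.47, edgeR adjusted p = 0.000199), CISH by -5.92 (standard error 0.68, edgeR adjusted p = 0.000999) and SOCS1 by -4.68 (standard error 0.52, edgeR adjusted p = 0.000877). JAK1 was lower by -1.26 (standard error 0.09, edgeR adjusted p = 0.000135). IL2RG (0.06, edgeR adjusted p = 0.943) and JAK3 (1.56, edgeR adjusted p = 0.0794) did not pass, and both differed between the DND-41 DMSO libraries by number. So did STAT5A, SOCS1, SOCS2 and CISH among the genes called. In the DND-41 DMSO libraries numbered 1 and 2, STAT5A had 6.60 and 1.67 CPM and CISH had 667 and 274 CPM. JAK3 passed without the DND-41 DMSO library numbered 1, at 2.53 (edgeR adjusted p = 0.0215). It also passed by DESeq2, at 1.57 (adjusted p = 0.0190), and without the DND-41 ACBI-1 library numbered 1 or 2, at 1.56 each (edgeR adjusted p = 0.0335 and 0.0330). Each line had its own count table, so the line and whatever differed between the tables cannot be told apart.

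Per kilobase of exon, the order of mean levels in MOLT-4 cells with ACBI-1 ran from STAT5B (55.7 ± 0.685 RPKM, SD, n = 2) through IL2RG (44.5 ± 1.117), STAT5A (34.0 ± 0.591) and STAT3 (16.7 ± 0.512 RPKM) to IL7R at the low end (0.314 ± 0.0201 RPKM). With DMSO, IL2RG stood first (124 ± 0.00322 RPKM) and STAT5A next (77.7 ± 1.74), with STAT5B behind (44.7 ± 0.0733 RPKM). In treated MOLT-4 cells SOCS1 (10.7 ± 0.0333 RPKM) and JAK1 (10.6 ± 0.217 RPKM) did not differ beyond their spread, and neither did SOCS2 (0.503 ± 0.0943) and CISH (0.653 ± 0.144 RPKM). In the DND-41 libraries numbered 2, SOCS1 (196 ± 8.84 RPKM) and IL7R (163 ± 0.726) led, while in those numbered 1 IL2RG (173 ± 0.0436 RPKM) led, before CISH (130.2 ± 0.442) and IL7R (120 ± 3.92 RPKM). STAT5A was the lowest in both, at 0.255 ± 0.0485 RPKM in the libraries numbered 2 and 1.24 ± 0.129 RPKM in those numbered 1.

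Further genes of the pathway were taken from 7 lists, chosen by function and overlapping in OSM, FOXO1 and IL2RA. Of all genes tested in MOLT-4, 28.2% were called higher and 30.2% lower, the shares to set beside the counts of each list. No list was tested as a set. In the MOLT-4 treatment contrast, 4 of 10 listed ligand genes passed the filter, of which 3 fell and 1 was not called, with a median log2 fold change of -0.99 beside 0.01 over all genes. IL7 itself had 0 to 2 counts in every library. OSM, oncostatin M and a known STAT5 target, had 0.51 and 0.46 CPM with ACBI-1, against 2.72 and 2.98 CPM with DMSO (-2.53, edgeR adjusted p = 1.18e-09). OSM was also lower in the DND-41 libraries numbered 2, with 11.9 and 11.8 CPM against 67.6 and 72.7 CPM in those numbered 1 (-2.55, edgeR adjusted p = 2.83e-08). IL4 fell by 1.61 (edgeR adjusted p = 3.83e-08) and IL15 by 0.38 (edgeR adjusted p = 0.0207) in MOLT-4. The IL15 call was lost without the ACBI-1 library numbered 2 (edgeR adjusted p = 0.126), without either DMSO library (0.0791 without number 1 and 0.0556 without number 2, edgeR adjusted p) and by DESeq2 (adjusted p = 0.250).

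Of 18 other cytokine receptor chains 13 were tested in MOLT-4, and 2 rose, 6 fell and 5 were not called (median -0.23). Calls in either direction took 58.4% of all genes tested, 28.2% higher and 30.2% lower. IL12RB1, a chain of the interleukin-12 receptor, had 5.21 and 5.04 CPM with ACBI-1, against 21.0 and 21.5 CPM with DMSO (-2.05, edgeR adjusted p = 7.54e-21). Among the interferon receptor chains IFNGR2 rose by 1.29 (edgeR adjusted p = 3.87e-20) and IFNAR2 fell by 0.75 (edgeR adjusted p = 1.02e-14). IL2RB, the chain that pairs with IL2RG in the interleukin-2 and interleukin-15 receptors, is named after its values were seen. It had 1 and 0 counts with ACBI-1, against 16 and 14 with DMSO (edgeR adjusted p = 2.59e-06), and its fitted fold change depends on the prior count. IFNGR2 overlaps TMEM50B on the opposite strand, which held 158% as many counts in MOLT-4.

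The 6 other JAK and STAT genes divided into 3 higher, 2 lower and 1 not called (median 0.43), beside 28.2% higher and 30.2% lower over all genes. STAT2, a transcription factor of type I interferon signalling, rose by 0.79 (edgeR adjusted p = 1.75e-16) and JAK2 by 0.88 (edgeR adjusted p = 2.97e-12). Both were also higher in the DND-41 libraries numbered 2, by 0.69 for STAT2 (edgeR adjusted p = 3.62e-05) and 0.41 for JAK2 (edgeR adjusted p = 0.00606). The 17 other negative regulators gave 8 higher, 4 lower and 5 not called (median 0.11), beside the same shares of all genes. PIAS3, an inhibitor of STAT3, rose by 1.07 (edgeR adjusted p = 3.11e-19). The phosphatase gene PTPN6 fell by 1.20 (edgeR adjusted p = 2.08e-19), and the adaptor gene SH2B3, a brake on JAK kinases, fell by 1.04 (edgeR adjusted p = 3.73e-18). SH2B3 overlaps ATXN2 on the opposite strand, which held 205% as many counts in MOLT-4.

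Of 11 STAT5 targets and survival genes 10 were tested in MOLT-4, with 2 higher, 6 lower and 2 not called (median -0.23). Over all genes tested 28.2% were higher and 30.2% lower. MYC, a driver of growth that NOTCH1 also controls in these leukaemias, had 337 and 329 CPM with ACBI-1, against 549 and 535 CPM with DMSO (-0.70, edgeR adjusted p = 3.16e-21). It was also lower in the DND-41 libraries numbered 2 (-1.61, edgeR adjusted p = 2.16e-07). The cell-cycle gene CCND3 rose by 0.49 (edgeR adjusted p = 3.08e-15) and the survival gene MCL1 fell by 0.41 (edgeR adjusted p = 4.5e-11) in MOLT-4. For number 2 over 1 in DND-41 they had the opposite signs, -0.34 for CCND3 (edgeR adjusted p = 0.00212) and 0.52 for MCL1 (edgeR adjusted p = 7.14e-05). In the PI3K and RAS arms, which the receptor also feeds, 6 of 12 genes rose, 5 fell and 1 was not called (median 0.15), beside those same shares. PIK3CD fell by 1.18 (edgeR adjusted p = 2.5e-16), GRB2 by 0.47 (edgeR adjusted p = 1.84e-13) and AKT1 by 0.44 (edgeR adjusted p = 2.75e-13). PIK3CD overlaps CLSTN1 on the opposite strand, which held 1082% as many counts in MOLT-4.

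Of 8 transcription factors known to act on the IL7R gene 7 were tested in MOLT-4, and 4 rose and 3 fell (median 0.23). Over all genes tested 28.2% rose and 30.2% fell. NOTCH1, which drives IL7R transcription in T-cell leukaemia, had 186 and 173 CPM with ACBI-1, against 837 and 835 CPM with DMSO (-2.22, edgeR adjusted p = 3.21e-38). In DND-41 it had 344 and 345 CPM in the libraries numbered 2, against 792 and 661 CPM in those numbered 1 (-1.06, edgeR adjusted p = 3.75e-06). IL7R stood lower with NOTCH1 in MOLT-4, at low counts, and higher in the DND-41 libraries where NOTCH1 was lower. Whether the level of NOTCH1 bears on that of IL7R was not tested. GABPA, needed for IL7R in developing lymphocytes of mice, rose by 0.72 in MOLT-4 (edgeR adjusted p = 6.91e-19), and NR3C1, the glucocorticoid receptor, rose by 0.73 (edgeR adjusted p = 1.07e-15). GABPA overlaps ATP5PF on the opposite strand, which held 79.6% as many counts in MOLT-4.

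**Figure D4:**
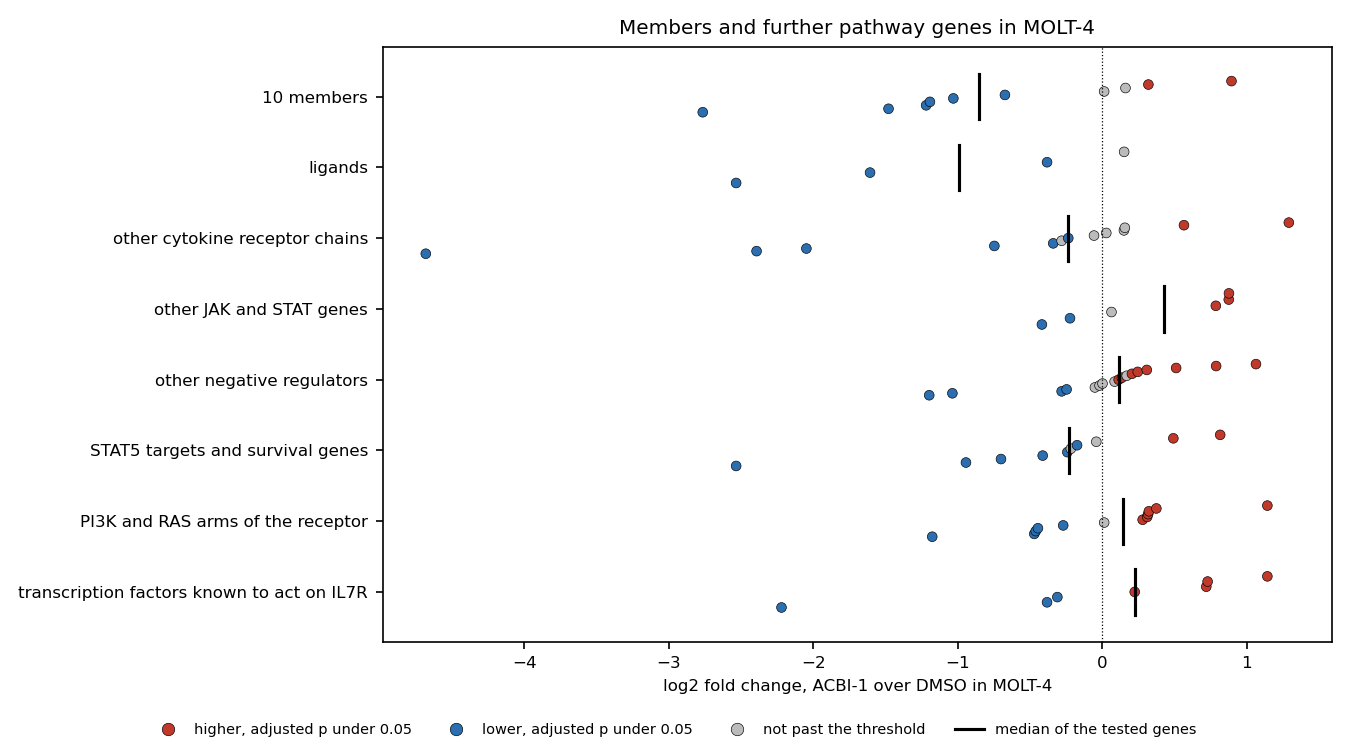
Log2 fold change for ACBI-1 over DMSO in MOLT-4 of the 10 genes and of the tested genes in the 7 further lists; red and blue points passed as higher and lower, grey points did not pass, and black lines are medians. The median of the 10 genes lies at -0.85 and that of the other JAK and STAT genes at 0.43, and the point farthest left is IL2RB, with 1 and 0 counts in the treated libraries.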

How the data were processed

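Total RNA was sequenced as strand-specific paired-end libraries, per the labels' protocols. The submitters' processing notes name STAR 2.5.2a, featureCounts, DESeq2 1.12.4 and the build hg19. The authors deposited 1 table of raw counts per line. They also deposited 1 DESeq2 table per line with a mean normalized count (a signal value), a log2 fold change with its error, a Wald score, and a p-value with its adjusted form, per the file headers. Strand setting and annotation release of the counting are not given in the sources used here.

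Counts of all genes were filtered with filterByExpr, scaled by TMM and tested 2-sided with the quasi-likelihood test of edgeR 4.0.16 (R 4.3.3), with Benjamini-Hochberg adjustment and a threshold of 0.05. Each line was fitted on its own, and the contrast of the lines and the interaction in 1 fit of 8 libraries. Standard errors are the log2 fold change over the root of F, and 95% intervals use the t distribution. CPM were scaled by TMM over 8 libraries, so their ratios differ slightly from the fitted changes. RPKM used exon lengths of GENCODE release 29. Intervals cover the spread of libraries. Promoters came from RefSeq, GRCh38.p14. Alternatives were other scalings and filters, DESeq2 1.42.0, the replicate block, a shared spread, the deposited tables and leaving out each library.

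The members, lists and tests were chosen with earlier results of these data known. All 10 members were named, and of each further list the 3 genes with the smallest adjusted p in MOLT-4. For IL7R and CISH the 3 nearest protein-coding genes were named, by Euclidean distance of centred log2(CPM + 0.5) among genes with at least 5 CPM in 2 libraries. Overlapping neighbours and IL2RB are named outside that rule, and some results under it are not reported here. Where a symbol had 2 identifiers (PTPN6, PIAS3 and IFNGR2 among the genes named, and CD79A) the one with most counts was used. The steps were tested on simulated data.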

Additional observations from a re-analysis of the deposited data

How the results depend on the processing

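Leaving out 1 library at a time leaves a group with 1 library. Every member called in MOLT-4 or in the DND-41 number contrast kept the sign of its change there each time. Of the counts of members and genes called, 169 alternatives stayed within 1.5 times and 26 moved further. For single genes 843 alternatives kept direction and call, 37 lost the call, 26 gained it and 42 changed sign, the last mostly in values near 0 or in the DND-41 label contrast. The cause of the changes was not tested, except where fewer libraries or genes entered by construction.

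In MOLT-4, DESeq2 called 5682 genes and the spread shared over 8 libraries 544, with 0 members higher and 0 lower. JAK1 was at -0.0074 without a low-count filter and at -0.0099 to 0.037 with 1 library left out, and SOCS2 at -0.042 to 0.34.

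With the replicate block the DND-41 label contrast called 1349 genes, still without a member. The line contrast, which then refers to the libraries numbered 1, called 10389 genes. Among them were IL2RG at -0.51 (adjusted p = 2.48e-15 by edgeR) and JAK3 at 1.001 (adjusted p = 4.14e-22 by edgeR). The interaction called 5860 genes (36.5%), with 2 members higher (17.2% of all genes) and 6 lower (19.3%). Deviations of libraries with the same number correlated at 0.959 in DND-41 and 0.0032 in MOLT-4, and the labels do not say what the number marks, so the block is given here alone. It changed no member's call in MOLT-4. With the labelled treatment as a term the DND-41 number contrast called all 10 members and 62.9% of all genes, 3 members higher (31.4% of all genes) and 7 lower (31.5%), JAK1 (adjusted p = 0.0497 by edgeR) and STAT5B (0.00202) being the additions.

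Against the DND-41 labels, the authors' deposited table gave 2 members higher and 6 lower, 5472 genes in all, JAK1 -0.13, JAK3 -1.53, STAT3 -0.32, STAT5A -2.29, STAT5B 0.12 and SOCS1 1.08. Total counts put STAT5B at 0.00037. Without 1 library the label contrast ran from -0.19 to 0.28 for IL7R, -1.02 to 0.82 for IL2RG, -0.88 to 1.002 for JAK3, -0.11 to 0.23 for STAT3 and -1.68 to 1.42 for STAT5A. It ran from -0.092 to 0.070 for STAT5B, -0.72 to 0.58 for SOCS1, -0.55 to 0.42 for SOCS2 and -0.90 to 0.74 for CISH.

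Total counts put JAK1 at 0.0082 in the DND-41 number contrast, IL2RG at -0.097 in the line contrast and JAK1 at 0.018 in the interaction. IL2RG in the line contrast was -0.66 from the means of all 4 libraries per line and -0.48 to 0.92 with 1 library left out, when 3292 to 7424 genes were called. In the interaction DESeq2 called 1 member lower and 367 genes, and leaving out 1 library 0 to 49 genes. With DND-41 by number, 2 members were higher and 3 lower with 3307 genes called, JAK1 was 0.12, STAT5A 1.08, SOCS1 -0.20 and CISH 0.12. With 1 library left out STAT5A ran from -2.60 to 0.49 and SOCS2 from -0.26 to 0.73.

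Low counts limit IL7R, CISH and SOCS2 in MOLT-4 and STAT5A in DND-41, and 2 libraries per group limit every estimate of the spread.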

Other observations

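The genes whose levels ran closest to those of IL7R over the 8 libraries, among 10254 genes compared, were MME (distance 1.16), MDFIC (1.18) and CDKN2A (1.60), where the distance is Euclidean on centred log2(CPM + 0.5) values and 0 would be an identical pattern. MME, the cell-surface peptidase CD10 of early lymphoid cells, had 0 CPM in each of the 4 MOLT-4 libraries, 212 and 207 CPM in the DND-41 libraries numbered 2, and 174 and 162 CPM in those numbered 1. MDFIC was likewise at 0 in MOLT-4, with 107 and 108 CPM in the DND-41 libraries numbered 2 and 139 and 134 CPM in those numbered 1. CDKN2A was at 0.0462 and 0.186 CPM in treated and 0 and 0.0991 CPM in DMSO MOLT-4 libraries. These 3 genes share with IL7R mainly the gap between the lines.

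The genes closest to CISH were ACSL5 (distance 1.14), FAM101B (1.19) and SMPD3 (1.19). SMPD3, a sphingomyelinase gene, had 8.37 and 8.27 CPM with ACBI-1, against 23.8 and 26.1 CPM with DMSO in MOLT-4. In DND-41 it had 839 and 891 CPM in the libraries numbered 2, against 1090 and 1069 CPM in those numbered 1. ACSL5, an enzyme that activates fatty acids, was at most 0.419 CPM in any MOLT-4 library, with 38.8 and 43.0 CPM in the DND-41 libraries numbered 2, against 74.8 and 72.7 CPM in those numbered 1. These lists are a description over 8 libraries of 2 lines, in which the line sets most of the spread.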
